A study of Homo sapiens with 9 samples.

Results

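The levels of all genes were examined in 293T cells that had received an empty vector, the control plasmid without an insert. These were 3 of the 9 RNA-seq libraries of the series, chosen by their labels alone; the other 6, transfected with HA-tagged CIC::NUTM1 or CIC::DUX4, were not used here. The cells were kept in high-glucose DMEM with fetal bovine serum and antibiotics and were reverse transfected with Fugene 6, 300000 cells at a time. Each replicate was transfected on a separate day, and RNA was harvested about 48 hours later. PolyA-selected RNA was made into strand-directional libraries. No untransfected culture was analysed here, so the values describe 293T cells that had met the transfection reagent and a plasmid. They come from 1 cell line, so the replicates measure repeated experiments on that line and not the variation between people.

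293T is a transformed human embryonic kidney line that carries the SV40 large T antigen and takes up plasmids readily, which is why it is widely used to test introduced genes. The kidney arises from mesenchyme marked by transcription factors such as SIX2, EYA1, PAX2 and SALL1, and its mature tubules and podocytes carry transporters, water channels and slit diaphragm proteins. The 293 lineage is also known for neurofilament expression, and an origin from a neural or adrenal cell of the kidney preparation has been debated. Which receptors a line carries decides which ligands it can answer, so the presence or absence of their transcripts is a usual first check before a signalling experiment.

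The 3 libraries held 17293867, 33655445 and 24946316 counts for replicates 1, 2 and 3. Levels are given as CPM, counts per 1000000 after scaling the libraries to each other. Where genes are compared with each other, TPM are used, in which counts are divided by the length of the gene's exons before they are scaled to that sum. A gene was taken as expressed at 1 CPM or more in all 3 libraries, and as at the floor where no library held more than 3 counts, the number that a count of 0 allows. In these libraries 3 counts were 0.173, 0.0891 and 0.120 CPM, and the floor covers counting error only. Of the 62700 genes in the table, 13800 (22%) were expressed and 40206 (64.1%) were at the floor. Of the 19853 protein-coding genes, 12235 (61.6%) were expressed, 2559 lay between and 5059 (25.5%) were at the floor. Of 14727 long non-coding RNA genes, 994 (6.75%) were expressed. The libraries held 14551, 14508 and 14412 genes at 1 CPM or more, and 23206, 24429 and 22599 genes with any count. Replicate 3 had the fewest of the latter, although replicate 1 was the shallowest.

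The abundance was concentrated in few genes. The 106 protein-coding genes at 1000 TPM or more held 22.7% of the length-scaled abundance, and the 1877 genes between 100 and 1000 TPM held 43.8%. The 7177 genes between 10 and 100 TPM held 27.0%, whereas the 3350 genes between 1 and 10 TPM held 1.53%. The median over all protein-coding genes was 7.0 TPM, and over the expressed ones 26.6 TPM.

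The 25 most abundant genes together held 10.6 ± 0.798% (SD, n = 3) of the length-scaled abundance. They comprised 9 mitochondrially encoded genes, 6 cytosolic ribosomal protein genes, 9 other protein-coding genes and 1 pseudogene. The highest was MT-CO2, a subunit of cytochrome c oxidase encoded on the mitochondrial genome, at 12280, 9711 and 8788 TPM in replicates 1, 2 and 3 (mean 10260 ± 1809, SD, n = 3). MT-CO1, its catalytic partner, followed at 10376, 8337 and 7276 TPM. Both were highest in replicate 1 and lowest in replicate 3. RPS2, a protein of the small ribosomal subunit (chr16:1962052-1964860), stood at 7345, 7700 and 8130 TPM and was lowest in replicate 1. The first place depends on the length used. With the longest transcript in place of all exons, RPS2 (8561 TPM) stood above MT-CO2 (7297 TPM). Of the nuclear genes outside the ribosome, EEF2, the translocase of translation elongation (chr19:3976056-3985469), was the highest at 4615, 4892 and 5025 TPM. EEF1A1, which brings aminoacyl-tRNA to the ribosome (chr6:73515750-73523797), stood at 4177, 4400 and 4419 TPM. The replicate values of these factors overlapped those of their neighbours in the order.

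**Figure D1:**
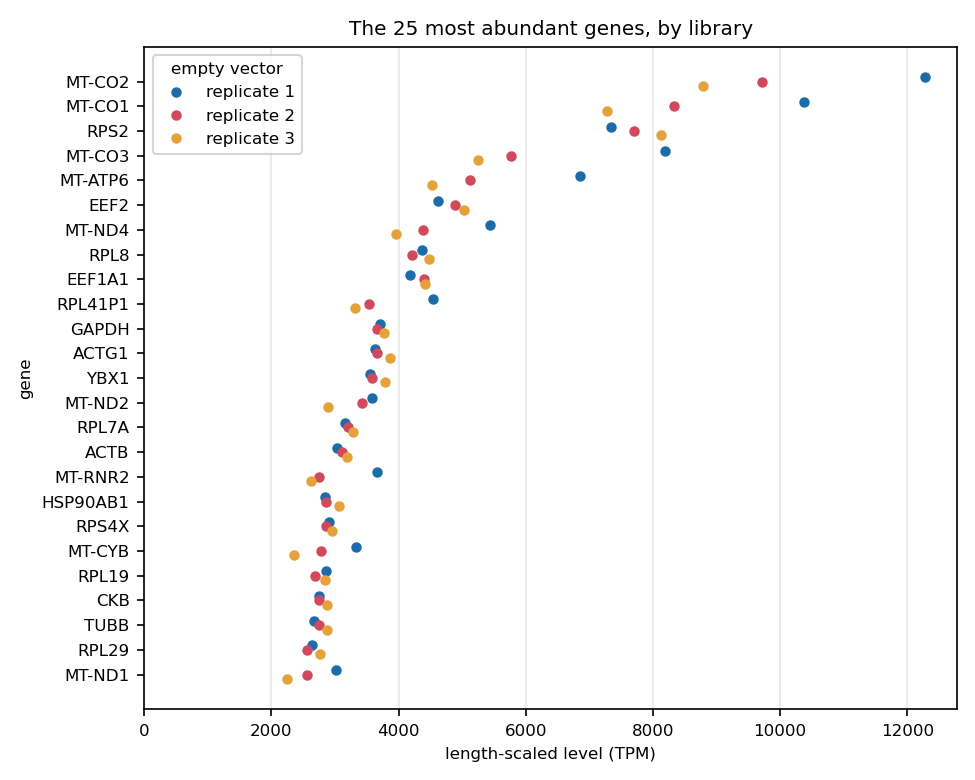
The 25 genes with the highest mean level, in order, with the TPM of each of the 3 empty vector libraries on the horizontal axis as 1 point per replicate. The mitochondrially encoded genes are spread widely, with replicate 1 to the right, whereas the points of GAPDH, RPS4X and RPL7A lie close together.

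In 0 of the 24 pairs of neighbours did the 3 libraries of the higher gene all lie above those of the lower gene. Within each library, 5 of the 24 pairs stood in this order in all 3, among them MT-CO2 above MT-CO1. The top 25 of any pair of libraries shared 21 to 23 genes, and 21 genes were in the top 25 of all 3. The other mitochondrial members were MT-CO3, MT-ATP6, MT-ND4, MT-ND2, MT-RNR2, MT-CYB and MT-ND1, between 6403 and 2608 TPM on average. The other ribosomal protein genes were RPL8, RPL7A, RPS4X, RPL19 and RPL29, between 4349 and 2656 TPM. Cytosolic ribosomal protein genes took 7.60%, 6.87% and 7.36% of all counts, and mitochondrially encoded genes took 1.72%, 1.32% and 1.2%. The pseudogene was RPL41P1, a short processed copy of RPL41, at 3798 ± 649 TPM (SD, n = 3). Reads of such near-identical copies cannot be assigned with certainty, so its level and that of RPL41 (2099 TPM) are uncertain.

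Most of the remaining members are housekeeping and cytoskeletal genes, and their spreads were narrow. GAPDH, an enzyme of glycolysis, stood at 3712, 3665 and 3774 TPM. The cytoplasmic actins ACTG1 and ACTB averaged 3716 ± 134 and 3107 ± 80.3 TPM (SD, n = 3 each). YBX1, an RNA-binding protein that packages mRNA, averaged 3639 ± 127 TPM, and HSP90AB1, a constitutive chaperone, 2922 ± 128 TPM. The beta tubulin TUBB averaged 2767 ± 99.6 TPM. CKB, the brain form of creatine kinase, stood at 2746, 2752 and 2869 TPM.

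IRS4, an adaptor of the insulin and IGF1 receptors that most tissues hardly express and that was first described in HEK293 cells, ranked among the 30 highest protein-coding genes outside the ribosome and the mitochondrion. Its values were 1376, 1297 and 1304 TPM (mean 1326 ± 43.9, SD, n = 3; chrX:108732482-108736409). The related adaptors IRS1 and IRS2 averaged 5.75 ± 0.862 and 6.09 ± 0.551 TPM, and none of their replicates came near those of IRS4. Some long non-coding RNAs are given for their known roles and are not the most abundant of the class. The snoRNA host genes SNHG29 and GAS5 averaged 271 and 101 TPM. NORAD, which binds Pumilio proteins, averaged 143 ± 2.82 TPM.

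The promoter sequences of 6 genes are shown because they span the range of levels and differ in the features that varied with level over all genes. Each runs 5′ to 3′ from 90 bases before to 30 bases after the first transcription start that RefSeq lists for the gene (GRCh38.p14). EEF2 (chr19:3985434-3985553), EEF1A1 (chr6:73521003-73521122) and RPL29 (chr3:51995866-51995985) were among the 25 most abundant genes. IRS4 (chrX:108736534-108736653) and SIX2, a kidney progenitor factor (chr2:45009423-45009542), were expressed, and ALB, the albumin gene of the liver (chr4:73404197-73404316), was at the floor. ALB lies on the plus strand and the other 5 on the minus strand. The RefSeq starts of all 6 genes differ from the 5′ ends of their GENCODE 29 genes, so another start may be in use, and a tract is counted only near the RefSeq start. Capitals mark, on either strand, the GC box GGGCGG, the CCAAT box CCAAT, the ETS core CCGGAAG and the cAMP element TGACGTCA. On the sense strand they mark the TATA box TATAAA and a pyrimidine tract. The tract is a C followed by at least 6 more C or T, all of them within 10 bases before or after the start. In RPL29 the tract runs into the complement of the ETS core, so the same bases count for both.
EEF2: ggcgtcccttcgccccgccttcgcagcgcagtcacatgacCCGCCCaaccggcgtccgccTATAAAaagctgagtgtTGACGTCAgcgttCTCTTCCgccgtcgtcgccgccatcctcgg
EEF1A1: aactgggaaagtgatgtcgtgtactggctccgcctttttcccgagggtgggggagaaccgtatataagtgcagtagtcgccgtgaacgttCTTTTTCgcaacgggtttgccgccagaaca
RPL29: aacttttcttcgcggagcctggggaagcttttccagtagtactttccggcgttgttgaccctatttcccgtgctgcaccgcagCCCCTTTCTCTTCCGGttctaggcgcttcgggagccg
IRS4: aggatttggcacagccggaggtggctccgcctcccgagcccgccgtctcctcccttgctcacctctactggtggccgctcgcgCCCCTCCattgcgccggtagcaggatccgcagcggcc
SIX2: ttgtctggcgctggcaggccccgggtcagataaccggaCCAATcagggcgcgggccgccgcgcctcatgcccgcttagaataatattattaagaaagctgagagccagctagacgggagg
ALB: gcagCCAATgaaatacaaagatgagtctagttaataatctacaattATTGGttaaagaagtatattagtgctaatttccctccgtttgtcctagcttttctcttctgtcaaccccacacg

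Such a tract at the very start of the mRNA is the known mark of the transcripts of ribosomal proteins and elongation factors, through which growth signals tune their translation. By the rule used here, a tract was found in the windows of EEF2, EEF1A1, RPL29 and IRS4 and not in those of SIX2 and ALB. In IRS4 it lies wholly before the RefSeq start, and so outside an mRNA that begins there. Tracts placed like that count in the shares below. ALB holds a run of C and T that begins soon after the start but passes the window's edge, so it was not counted. Over all 14678 protein-coding genes with a promoter sequence and little overlap with another gene, 11% held the tract, and over those at the floor 9.41% did. The share was 42.5% of the 80 genes at 1000 TPM or more, 69.2% of the 65 ribosomal protein genes and 21.7% of the genes at 1000 TPM or more that were not ribosomal. These are descriptions of letters in a window and not of sites in use.

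The other promoter features also varied with level. In the whole 300-base window, from 250 bases before to 50 after the start, CpG dinucleotides were frequent (observed over expected 0.6 or more) in 66.8% of all promoters. That share was 18.6% of the genes at the floor, 44.5% of those between the floor and 1 CPM, 75.8% in the lowest quartile of the expressed genes and 93.5% in the highest quartile. ALB had a ratio of 0.481 and a GC content of 33.3%, whereas EEF2 had 1.36 and 64.3% and IRS4 0.693 and 68.3%. The GC box, bound by SP and KLF factors, was in 59.5% of all promoters, 25% of those at the floor and 75.6% of the highest quartile. The ETS core was in 14.4% of all, 3.15% at the floor and 24.6% in the highest quartile. The CCAAT box was in 36.5% of all promoters, 37.1% of those at the floor, 32.6% of the lowest quartile of expressed genes, 41.0% of the highest and 45% of those at 1000 TPM or more. The cAMP element was in 2.68% of all promoters, and the palindromic NRF1 motif, searched exactly on both strands and in none of the stretches shown, was in 1.74%.

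The TATA box, counted only on the sense strand from 40 to 15 bases before the start, had another pattern. It was in 3.64% of all promoters, 9.92% of those at the floor, 0.938% of the second-lowest quartile of expressed genes and 8.75% (7 genes) of those at 1000 TPM or more. EEF2 held it and ALB, in this form and window, did not. EEF1A1 did not hold these exact letters either.

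**Figure D2:**
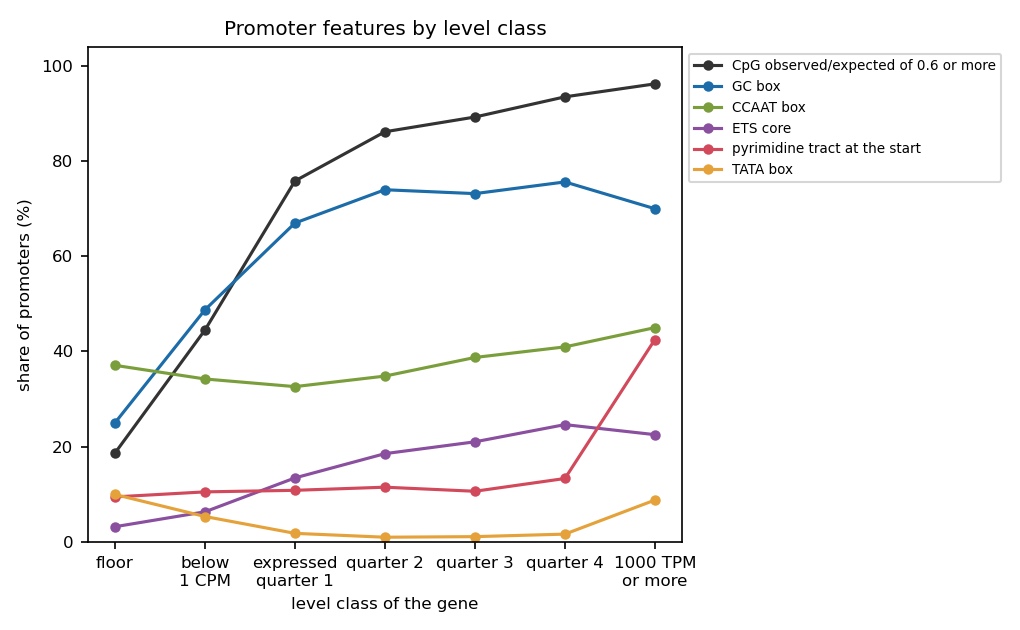
Share of promoters (vertical axis, %) that hold each feature, for 7 level classes from the floor to 1000 TPM or more (horizontal axis). Frequent CpG is at 18.6% at the floor and at 93.5% in the highest quartile of expressed genes, and the pyrimidine tract is at 42.5% in the last class.

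The label calls the cells human embryonic kidney. Of 13 kidney progenitor markers, 10 (76.9%) were expressed, 1 lay between and 2 were at the floor, beside 61.6% expressed and 25.5% at the floor of all protein-coding genes. Their median was 5.18 TPM, under the 7.0 TPM of all protein-coding genes. SIX2, which keeps nephron progenitors undifferentiated, stood at 83.2, 93.1 and 93.8 TPM and was the highest of them. SALL1, a zinc finger factor of the same cells, stood at 31.8, 41.3 and 36.7 TPM, with CITED1 at 32.0 ± 7.58 TPM and WT1, needed for kidney and gonad formation, at 13.3 ± 2.58 TPM (SD, n = 3 each). LHX1 averaged 11.4 ± 1.87 TPM and PAX2 5.18 ± 0.101 TPM. PAX8, a marker of the developing tubule, held 0 counts in every library. In a bulk sample, fewer cells of a type and less RNA per cell cannot be told apart.

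Of 14 markers of nephron epithelium, 3 (21.4%) were expressed and 9 were at the floor. PODXL, the sialomucin of podocytes that other cells also carry, stood at 31.6, 39.9 and 37.5 TPM. LRP2, the endocytic receptor megalin of the proximal tubule, stood at 5.28, 6.99 and 4.79 TPM, and SYNPO, an actin-binding protein of podocytes, averaged 1.17 TPM. Among those at the floor were the slit diaphragm gene NPHS1, the transporters SLC34A1, SLC22A6, SLC12A1 and SLC12A3, and UMOD, AQP2 and CALB1.

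Neurofilament genes gave the highest values of any lineage list. NEFM, the medium neurofilament subunit, stood at 585, 448 and 508 TPM, and NEFL, the light subunit, at 180, 174 and 190 TPM. INA, a further neuronal intermediate filament, averaged 24.8 ± 2.00 TPM, SYP, a protein of synaptic vesicles, 15.8 ± 2.06 TPM and GAP43, a growth cone protein, 6.09 ± 0.829 TPM (SD, n = 3 each). The list was not expressed as a whole: of 15 neuron markers 7 were expressed, 5 lay between, and ELAVL3, STMN2 and DCX were at the floor. NEFH, the heavy subunit, lay between at 0.495 TPM. TUBB3, the neuronal beta tubulin, held 2, 3 and 5 counts, but 35.8% of its exon bases are also exons of another gene on the same strand, which limits what its count can show. NEFM is overlapped for 38.9% of its exon bases by a gene on the opposite strand, so its value also depends on how strand was used in counting.

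Of 8 neural progenitor markers, 4 were expressed. MSI1, an RNA-binding protein of neural stem cells, stood at 73.5, 75.1 and 80.2 TPM, and SOX2, a factor of neural and embryonic stem cells, at 51.3, 47.0 and 56.8 TPM. PAX6 and NES averaged 6.24 and 5.95 TPM, whereas SOX1, FABP7 and PROM1 were at the floor. Of 7 glial markers, OLIG2, MBP and GFAP were expressed, with OLIG2, a factor of oligodendrocyte lineage, at 12.6, 16.5 and 14.9 TPM, and SOX10 was at the floor. Of 10 adrenal and chromaffin markers none was expressed at 1 CPM in all libraries and 7 were at the floor, among them TH, DBH and the steroid enzymes CYP11A1, CYP17A1 and CYP21A2. STAR, which carries cholesterol into mitochondria, was also at the floor.

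The other lineage lists were mostly at the floor or low. Of 10 epithelial markers 4 were expressed: KRT18, a keratin of simple epithelia, at 76.6, 78.4 and 76.7 TPM, OCLN of tight junctions at 15.7 TPM, KRT8, the usual partner of KRT18, at 5.84 TPM and CDH1 (E-cadherin) at 2.50 TPM. KRT19, KRT7 and ESRP1 were at the floor. Of 9 fibroblast markers 4 were expressed, led by COL1A1 at 13.6, 13.0 and 14.1 TPM, whereas its partner chain COL1A2 held no count in any library and THY1 and FAP were at the floor. Of 10 pluripotency and germ cell markers, LIN28B, a repressor of let-7 maturation, was expressed at 74.6, 80.6 and 71.1 TPM and SALL4 at 1.39 TPM. The other 8, POU5F1, NANOG, LIN28A, DPPA4, TDGF1, DDX4, DAZL and PRDM14, were at the floor.

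Of 9 blood markers 1 was expressed and 6 were at the floor, among them PTPRC, CD3E, HBA1, HBB and CSF1R. Of 8 muscle markers, embryonic myosin MYH3 was expressed (2.38 TPM), and MYOG and TNNT2 were at the floor. Of 8 endothelial markers none was expressed, and CDH5, VWF, TEK, TIE1, CLDN5 and ERG were at the floor. Of 7 liver markers none was expressed, and ALB, AFP, APOB, TTR, SERPINA1 and HNF4A were at the floor. ALB held 2, 3 and 0 counts.

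**Figure D3:**
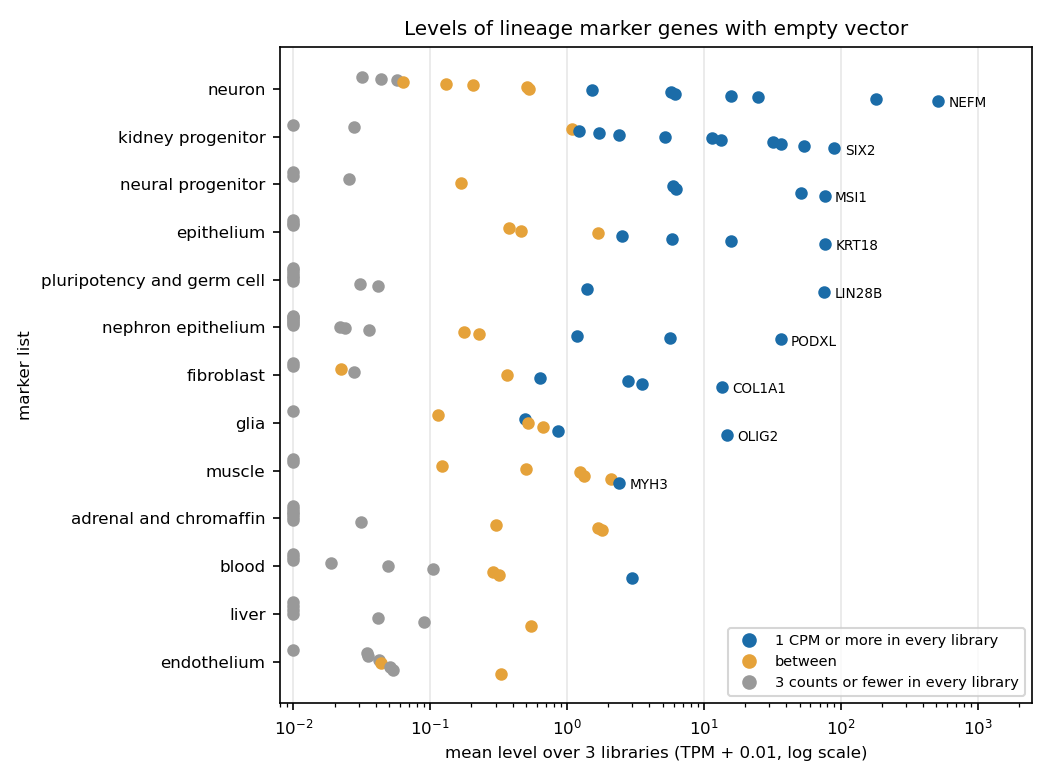
Mean level of each marker gene over the 3 empty vector libraries (horizontal axis, TPM + 0.01 on a log scale) for 13 lineage lists (vertical axis), coloured by level class and with the highest expressed member named in all lists that hold one but blood. NEFM stands highest at 514 TPM, and the adrenal, endothelial and liver lists hold no expressed member.

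Over 24 families of developmental transcription factors with 309 members, 213 (68.9%) were expressed, 43 lay between and 53 were at the floor, and their median was 7.95 TPM. Both values are near those of all protein-coding genes (61.6% and 7.0 TPM). The highest member of all was FOXC1, a forkhead factor of mesenchyme and eye development, at 360, 376 and 377 TPM (mean 371 ± 9.81, SD, n = 3). HOXD13, the last gene of the HOXD cluster, which patterns digits and the urogenital tract, followed at 329, 346 and 344 TPM. Their libraries did not overlap. Of 39 HOX genes 35 were expressed, 3 lay between and HOXB1 held no count. EN2, a factor of the midbrain and hindbrain border, stood at 198, 242 and 241 TPM. NKX2-5, a heart factor, stood at 196, 206 and 218 TPM, and SOX12 at 193, 192 and 208 TPM. The ranges of EN2, NKX2-5 and SOX12 over the libraries overlapped, although within each library they kept this order.

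ZIC2 of the neural plate averaged 154 ± 3.12 TPM, TBX1 of the pharyngeal arches 135 ± 9.37, KLF16 128 ± 3.08, MSX1 122 ± 9.36 and DLX2 117 ± 3.88 TPM (SD, n = 3 each). POU3F3, which acts in kidney and brain, averaged 105 ± 6.78 TPM, and HAND1 of heart and trophoblast 105 ± 6.32 TPM. PBX2, a cofactor of HOX proteins, averaged 94.0 ± 5.67, CBFB, the partner of RUNX proteins, 89.1 ± 3.98, and GATA6, an endoderm and heart factor, 85.1 ± 6.31 TPM. SIX2 led its family at 90.04 ± 5.97 TPM and SALL2 at 68.3 ± 4.12 TPM. Further down, the leading members were ISL2 (48.2 TPM), IRX3 (36.7), TFAP2A (34.4), EYA3 (33.2), SNAI2 (22.0), ONECUT2 (9.57) and PAX3 (8.60). All members of the EYA, DLX, MSX and SALL families, of the group of SNAI and ZEB and of the group of MEIS, PBX and PKNOX were expressed. By contrast, 10 of 31 proneural and related bHLH genes and 2 of 5 HNF1 and ONECUT genes were.

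The receptor lists are given beside the 61.6% of all protein-coding genes that were expressed. Receptor tyrosine kinases, which dimerise on binding growth factors and phosphorylate themselves, were expressed in 42 of 58 cases with a median of 7.42 TPM. FGFR3 was the highest, at 131, 108 and 132 TPM, followed by EPHB4, a receptor of ephrin-B2, at 74.2, 77.1 and 86.2 TPM. The libraries of FGFR3 and EPHB4 did not overlap. FGFR4 averaged 53.3 ± 4.30, FLT4, the lymphatic VEGF receptor, 52.7 ± 3.00, and PTK7, a pseudokinase of planar polarity, 50.9 ± 2.68 TPM (SD, n = 3 each), and these overlapped. EGFR stood at 6.38, 6.57 and 5.16 TPM and ERBB2 at 31.4, 37.7 and 33.3 TPM, without overlap. At the floor were CSF1R, TEK, TIE1, NTRK3, MUSK, ROS1 and ALK, 7 of the 58 (25.5% of all protein-coding genes were). AXL held 6, 11 and 1 counts and was not expressed by the rule used.

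The receptors of TGF-beta and BMP, which include serine and threonine kinases, were expressed in 12 of 14 cases. Their level was even and moderate, with a median of 14.2 TPM. ACVR1B, an activin receptor, averaged 32.2 ± 2.03 TPM, and TGFBR1 30.9 ± 0.588 TPM. BMPR2 averaged 23.9, ACVR2B 18.1 and TGFBR2 16.6 TPM, so both chains of the TGF-beta receptor were present. The 2 that were not expressed, ACVRL1 and ENG, are receptors of endothelium.

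Cytokine receptors were expressed in 23 of 36 cases with a median of 4.40 TPM. The chains of the interferon gamma receptor led, IFNGR2 at 70.6, 68.9 and 71.4 TPM and IFNGR1 at 56.7, 70.6 and 61.2 TPM, which overlapped. TNFRSF10B, a death receptor of TRAIL, averaged 60.2 ± 2.71, IL13RA1 52.3 ± 3.21 and TNFRSF1A, the main TNF receptor, 49.1 ± 3.48 TPM (SD, n = 3 each). At the floor were 7 of the 36, among them IL2RA, IL2RG, IL7R, CSF3R and CSF2RB of lymphoid and myeloid cells and PRLR. For IL2RG, 50.8% of the exon bases are shared with another gene on the same strand.

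G protein-coupled receptors carry signals of hormones, transmitters, lipids and chemokines to G proteins. Of 70 receptors of hormones and transmitters, 23 were expressed, 24 lay between and 23 were at the floor, with a median of 0.335 TPM. ADRA2C, an adrenergic receptor coupled to Gi, was the highest at 74.9, 75.9 and 95.2 TPM. ADORA2B, an adenosine receptor, stood at 27.2, 36.2 and 39.6 TPM, below every library of ADRA2C. GABBR1 (12.2 TPM), the endothelin receptor EDNRA (8.77) and the serotonin receptor HTR6 (8.01) completed the leading 5. No count above 3 was found for the dopamine receptors DRD1, DRD3 and DRD5, the muscarinic receptors CHRM1, CHRM2 and CHRM5, the adrenergic receptors ADRA1A, ADRA1D and ADRB3, the serotonin receptors HTR1A, HTR2A and HTR2B, and HRH3. Also at the floor were OPRM1, the mu opioid receptor, GLP1R and GCGR of glucagon-family hormones, CASR, the calcium sensor, AVPR2, AGTR2, PTGER1, ADORA3, CNR2 and SSTR3.

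Of 30 receptors of lipids, nucleotides, proteases and chemokines, 15 were expressed and 13 were at the floor. F2R, the thrombin receptor, stood at 42.8, 49.4 and 47.9 TPM, LPAR3, a receptor of lysophosphatidic acid, at 35.4, 35.6 and 46.7 TPM, and F2RL1, a trypsin receptor, at 22.8, 24.6 and 22.7 TPM. P2RY1 averaged 19.3 and P2RY11 17.7 TPM, the latter overlapped for 54.2% of its exon bases on the same strand. Those at the floor included ACKR3, CXCR3, CCR2, CCR7, S1PR4, LPAR4, P2RY4, P2RY6, P2RY12, P2RY14, F2RL2 and F2RL3.

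Of 31 subunits of ligand-gated channels, 11 were expressed. CHRNA5, an accessory subunit of nicotinic receptors, was far above the rest at 55.7, 54.3 and 56.6 TPM. GRIN2D, an NMDA receptor subunit, averaged 14.8 ± 1.79, CHRNB1 8.85, GLRB 8.19 and P2RX4 5.17 TPM. At the floor were 10 of the 31, among them GABRA2, GLRA1, GRIA1, GRIN2A, CHRNA1, P2RX1, P2RX3, P2RX5 and P2RX7. Of 26 integrin subunits 16 were expressed, led by ITGB1, the shared beta chain, at 103, 110 and 113 TPM. ITGA5, the fibronectin receptor chain, averaged 28.9, ITGB5 27.6, ITGAV 27.2 and ITGA6 18 TPM, whereas the leukocyte chains ITGAM, ITGAX, ITGAD and ITGB7 and the epithelial ITGB6 were at the floor.

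Nuclear receptors, transcription factors that bind hormones and lipids directly, were expressed in 34 of 45 cases with a median of 9.63 TPM. The COUP family held 3 of the 4 highest: NR2F6 at 218, 221 and 214 TPM, NR2F1 at 124, 132 and 134 TPM and NR2F2 at 95.8 ± 3.46 TPM (SD, n = 3). ESRRA, a regulator of mitochondrial genes, averaged 119 ± 6.23 and RXRB 60.8 ± 0.785 TPM. Of the steroid hormone receptors, the glucocorticoid receptor NR3C1 stood at 26.6, 31.1 and 28.6 TPM, whereas the estrogen receptor ESR1 held 0, 0 and 1 counts. HNF4A, NR1H4, NR1I2 and NR0B2, receptors of liver and intestine, were also at the floor.

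**Figure D4:**
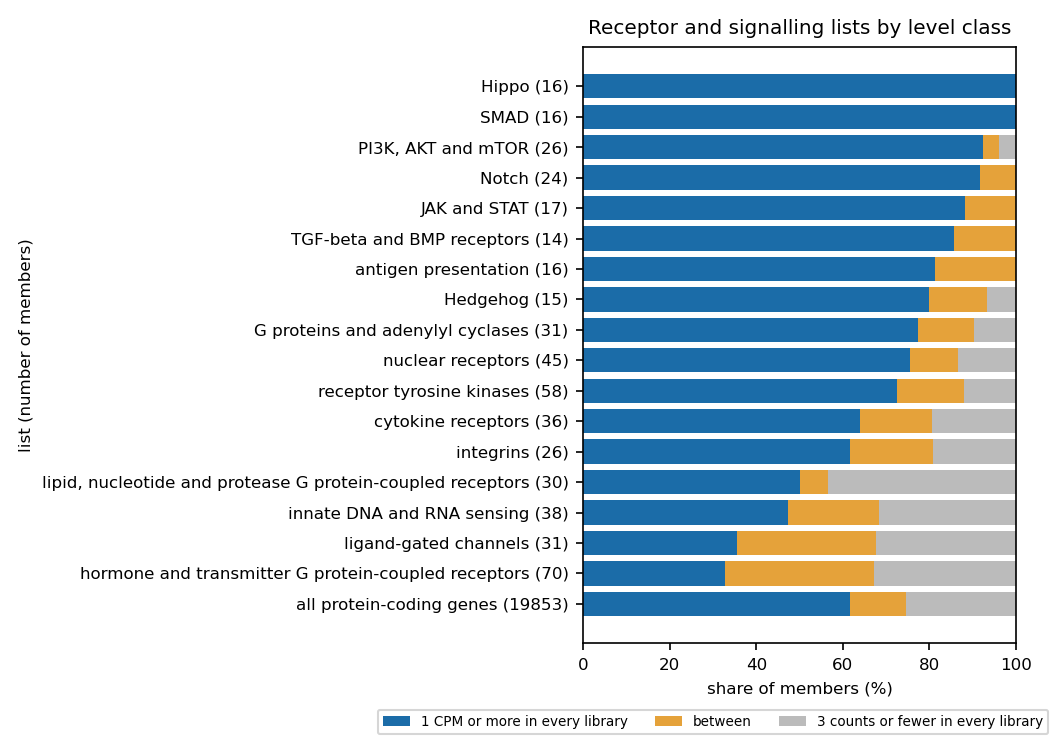
Share of members (horizontal axis, %) of each receptor and signalling list that were expressed, between, or at the floor, with all protein-coding genes as the lowest bar. Hippo and SMAD genes were expressed in 16 of 16 cases each, and hormone and transmitter receptors in 23 of 70.

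The pathway lists are also given beside the 61.6% of all protein-coding genes that were expressed. The share was 77.4% to 100% in these lists except nucleic acid sensing, where 18 of 38 genes (47.4%) were expressed. In the Notch pathway, in which a ligand on a neighbouring cell releases the receptor's intracellular part to act on transcription, 22 of 24 genes were expressed. All 5 ligands were, led by JAG2 at 58.1, 60.8 and 61.9 TPM. NOTCH2 averaged 59.7 ± 7.69, NOTCH3 50.02 ± 4.79 and NOTCH1 18.3 ± 1.45 TPM (SD, n = 3 each), and NOTCH4 was not expressed. The targets stood highest: HES4 at 951, 860 and 966 TPM, HEY1 at 197, 197 and 189 TPM, and the feedback inhibitor NRARP at 188, 196 and 175 TPM. HES1 averaged 113 ± 9.14 and the coactivator MAML1 109 ± 9.64 TPM.

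In the Hedgehog pathway none of the 3 ligands was expressed: SHH held 4, 8 and 10 counts, IHH lay between at 0.822 TPM and DHH was at the floor. All 7 membrane proteins that bind or relay the ligand were expressed, with GAS1, a coreceptor, at 97.1, 101 and 110 TPM, SMO, the transducer, at 80.7, 81.3 and 85.1 TPM, and the receptor PTCH1 at 11 ± 1.38 TPM. KIF7 averaged 68.3 and SUFU 30.5 TPM, and the target and effector GLI1 stood lower, at 2.66, 5.05 and 4.22 TPM, than GLI2 at 16 TPM.

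All 16 SMAD pathway genes were expressed. The ID genes, known targets of BMP signals, led with ID3 at 375, 368 and 349 TPM, ID2 at 251 ± 13.8 and ID4 at 195 ± 3.80 TPM (SD, n = 3 each), followed by SKI, a SMAD repressor, at 136 TPM and ID1 at 132 TPM. The SMAD transducers themselves had a median of 18.4 TPM. All 16 Hippo genes were expressed as well, with TEAD4, the DNA-binding partner of YAP1, at 91.7, 91.3 and 91.8 TPM, the kinase adaptor MOB1A at 67.7, TEAD2 at 53.7, YAP1 at 53.1 ± 1.85 and the kinase STK4 at 48.5 TPM.

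Of 26 genes of PI3K, AKT and mTOR signalling, 24 were expressed, headed by IRS4. RHEB, the activator of mTORC1, averaged 150 ± 11.1, MLST8 138 ± 3.06, AKT1 71.2 ± 1.26 and the kinase RPS6KB2 67.6 ± 3.10 TPM (SD, n = 3 each). PIK3CG, the leukocyte catalytic subunit, held no count, and PIK3R2 held 8, 6 and 0, with 87.2% of its exon bases shared on the same strand. Of 17 JAK and STAT genes 15 were expressed, with TYK2 at 73.5, 68.1 and 69.5 TPM, JAK1 at 52.7, PIAS3 at 49.3 and STAT3 at 38.1 TPM. Of 31 G protein and effector genes 24 were expressed: GNA11 of the Gq class at 105, 124 and 112 TPM, ARRB2 at 91.0, PRKACA at 87.9, ADCY3 at 72.3 and GNA13 at 60.8 TPM. The adenylyl cyclases ADCY2, ADCY4 and ADCY8 were at the floor.

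Genes of nucleic acid sensing were split by role. Sensors, the proteins that bind foreign DNA or RNA, were expressed in 3 of 19 cases, whereas adaptors and kinases were in 12 of 15 and transcription factors in 3 of 4. EIF2AK2 (PKR) was the highest sensor at 23.9 TPM, and TLR6 and IFIH1 (MDA5) stood at 1.91 and 1.06 TPM. RIGI held no count in any library, and CGAS, the DNA sensor, held 1, 6 and 0 counts. TLR2, TLR4, TLR7, TLR8, TLR9, TLR10, AIM2, ZBP1 and NLRP3 were at the floor, as were the adaptors LY96 and TICAM2. For TLR9 and TICAM2, 86.3% and 82.2% of the exon bases are shared with another gene on the same strand. Downstream, the kinase IRAK1 stood at 679, 759 and 766 TPM, RELA of NF-kappaB at 71.1, 82.95 and 83.2 TPM, IRF3 at 70.02, 66.9 and 65.4 TPM, TRAF3 at 44.6 TPM and MAVS, the mitochondrial adaptor, at 38.2, 36.9 and 38.0 TPM. STING1, the adaptor of CGAS, stood at 6.51, 5.30 and 6.37 TPM.

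All 9 genes of class I antigen presentation were expressed, among them HLA-C at 442, 479 and 496 TPM, HLA-B at 148, HLA-E at 101 and B2M at 91.1 TPM. HLA genes are near copies of each other and differ between people, so reads may be split or lost between them. Of 7 class II genes 4 were expressed, led by HLA-DRB1 at 26.6 ± 4.2 TPM (SD, n = 3), while HLA-DRA, the alpha chain it pairs with, and CD74 were not.

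The lists of proliferation, glycolysis and cytoskeleton genes, kept for reference, were fully expressed. All 19 proliferation genes were, led by PCNA, the clamp of DNA polymerase, at 646, 655 and 680.2 TPM, the helicase subunits MCM7, MCM3 and MCM2 at 631, 431 and 415 TPM and CCNB1 at 370 TPM. All 19 glycolysis genes were expressed, GAPDH, ENO1, TPI1, LDHA and PGAM1 at 3717, 2008, 1699, 863 and 800 TPM. ALDOA and LDHB, usually abundant, averaged 3.08 and 4.48 TPM, and in GENCODE 29 42.3% and 33.4% of their exon bases belong also to another gene on the same strand. All 17 cytoskeleton genes were expressed, and TUBA1B (2447), TMSB10 (2093) and PFN1 (1408) followed the actins and TUBB in TPM. VIM, the mesenchymal intermediate filament, stood at 431, 436 and 457 TPM. Of the 682 genes in all lists, 428 were expressed, 111 lay between and 143 were at the floor.

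Protein-coding genes that share 30% or more of their exon bases with another gene on the same strand were mostly not expressed by the counts, and their absence cannot be read from them. Among the 16488 protein-coding genes without a same-strand neighbour over their exons in GENCODE 29, 63.2% were expressed. The share was 77.6% of genes overlapped for under 10% of their exon bases and 65.5% of those overlapped for 10% to 30%. It was 41.9% of the 334 genes overlapped for 30% to 50% of their exon bases, 16.6% of the 421 overlapped for 50% to 90%, and 1.13% (5 genes) of the 444 overlapped further. For overlap on the opposite strand, 55.4% of genes without it were expressed. The share was 75.7%, 73.1%, 65.7% and 59.1% of those overlapped for under 10%, 10% to 30%, 30% to 50% and 50% to 90%, and 32% of the 25 overlapped further. Ribosomal protein genes overlapped on the same strand include RPL17 with 58, 82 and 69 counts and RPS10 with 21, 30 and 21, against 79261, 155739 and 123923 for RPS2. ZNF593, overlapped fully on the opposite strand, held 1236, 1941 and 1858 counts. The annotation used in counting is not given in the sources used here, and the part of overlap in these low counts was not tested. Without genes overlapped for 30% or more on the same strand, 12020 of 18654 protein-coding genes (64.4%) were expressed.

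The 3 libraries were close to each other but differed by more than counting. The Pearson correlation of log2 CPM across genes was 0.991, 0.991 and 0.992 in the 3 pairs, in which genes are not independent replicates. The chi-square statistic of the counts divided by its degrees of freedom was 7.58, 5.94 and 7.42, above what counting alone gives in each pair. The common biological coefficient of variation, edgeR's estimate of the spread beyond counting, was 8.14% over 15590 genes. Among the 11842 genes with a mean of 100 counts or more, the median coefficient of variation (CV) of CPM was 6.41%, where counting alone gives a median of 3.29%. The CV was above 20% in 553 of them (4.67%). In 176 of the 553 replicate 1 stood apart on the high side, the most frequent of the 6 possibilities, and in 59 it stood apart on the low side.

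The genes with the widest CV among those of at least 100 mean counts were ENSG00000288271, MIR34AHG, CROCCP2, IFRD1, HSF4, CDK5RAP3, HAS2, MT-ND4L, ENSG00000279088 and SFR1, between 60.1% and 41.3%. Replicate 1 was the highest library in all 10. Counting alone gives MT-ND4L a CV of 1.90% and the other genes 7.25% to 10.2%. Of the exon bases of HSF4 and CDK5RAP3, 31.4% and 30.6% are shared with another gene on the same strand, which limits what their counts can show. IFRD1, a regulator induced by stress and differentiation, stood at 6.88, 2.83 and 4.04 CPM. MIR34AHG, the host of miR-34a and a target of p53, stood at 7.23, 4.10 and 2.79 CPM, and HAS2, a hyaluronan synthase, at 11.5, 5.33 and 6.34 CPM. MT-ND4L, a short complex I gene, stood at 182, 90.9 and 92.9 CPM. CROCCP2 differed from the other 9 in that replicates 1 and 2 were alike (7.87 and 7.75 CPM) and replicate 3 was low (2.87 CPM).

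Some gene groups varied together between the libraries. Of the 15 mitochondrially encoded genes with at least 100 counts, 14 were highest in replicate 1, with median deviations from the gene's mean of 0.30, -0.09 and -0.23 on the log2 scale in replicates 1, 2 and 3. Of 80 cytosolic ribosomal protein genes, 62 were highest in replicate 1, with median deviations of 0.11, -0.10 and 0.02. Among the 11097 other protein-coding genes the medians were -0.01, 0.00 and 0.01, and 3159 were highest in replicate 1. Longer genes were relatively higher in replicate 2: across 11751 genes the deviation correlated with exon length at r = -0.15, 0.28 and -0.13, and with GC content at 0.07, -0.21 and 0.15, as descriptions across genes that share their libraries. Replicate 2 was also the deepest library, and the part of depth, length or GC content in these shifts was not tested.

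The narrowest CV among genes of at least 1000 mean counts belonged to MTMR4, PISD, HNRNPR, USP20, H2AZ2, MMADHC, SLC39A9, NARS1, PNMA1 and CRNKL1, between 0.0644% and 0.258%. MTMR4, a lipid phosphatase of endosomes, stood at 87.5, 87.6 and 87.5 CPM, and HNRNPR, an RNA-binding protein, at 492, 492 and 491 CPM. Counting alone gives MTMR4 a CV of 2.21% and HNRNPR 0.931%, so these genes were picked for values that lie closer together than their own counting error.

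**Figure D5:**
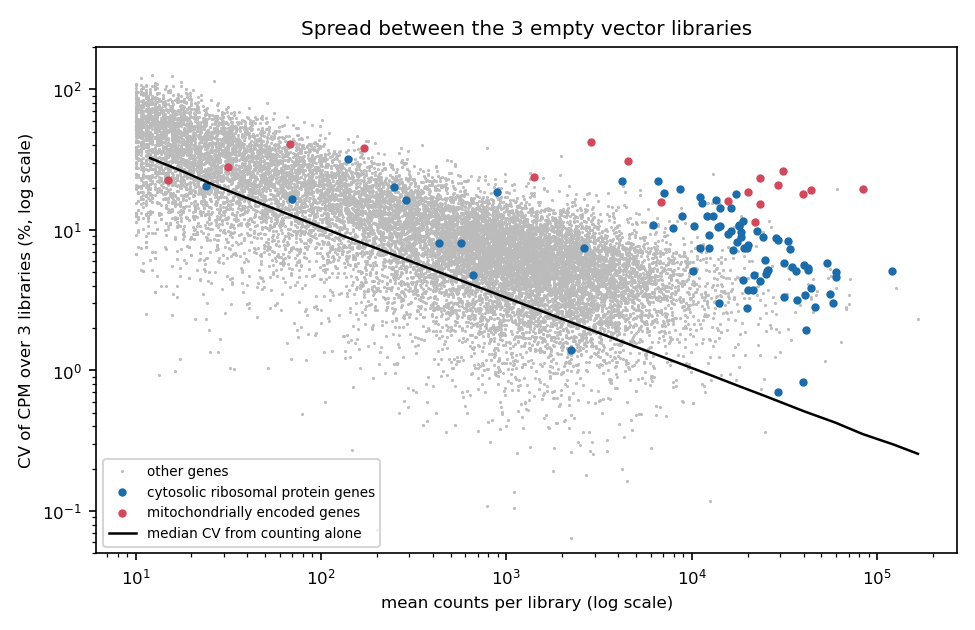
CV of CPM over the 3 empty vector libraries (vertical axis, %, log scale) against mean counts (horizontal axis, log scale), 1 point per gene with a mean of 10 counts or more, and the median CV from counting alone as a line. Most genes lie above the line, and mitochondrially encoded genes lie above most genes of their depth.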

How the data were processed

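PolyA-selected RNA of 293T cells with empty vector was sequenced in 3 libraries. The file the authors deposited holds unnormalized read counts for each Ensembl gene. STAR 2.7.10b, R 4.2.2, edgeR 3.40.2 and GRCh38 are named, with no role, in the submitters' processing notes; which gene models were counted, and whether strand was used, is not given in the sources used here. Per the labels' protocols the libraries were strand-directional.

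Gene IDs were matched to symbols (62622 of 62700). GENCODE 29 (GRCh38) gave positions, exon lengths and overlaps for 58276 genes; genes without a length held 0.201% of counts. Libraries were scaled by TMM (edgeR 4.0.16, R 4.3.3) to CPM, and counts over union exon length were scaled to 1000000 (TPM). Dispersion was estimated with filterByExpr and 1 mean. Depth was 17293867 to 33655445 counts. Values are means ± SD over 3 libraries; no contrast was made and no hypothesis was tested. The dispersion script was checked on simulated data. Promoters came from RefSeq (15268 of 19840 protein-coding genes matched by symbol). Figures were drawn with matplotlib 3.10.9.

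The members and lists were chosen with earlier results of these data known. Named are the 25 genes with the highest TPM; in each list up to 5 expressed members with the highest TPM and all at the floor; the highest member of each transcription factor family; and the 10 genes with the widest and the narrowest CV among those with at least 100 and 1000 mean counts. Other genes were chosen for their role after their values were seen. Some members that this rule names are not reported here. Alternatives were library totals or DESeq2 1.42.0 size factors, other thresholds, the longest transcript as length, leaving out mitochondrial or overlapping genes, and leaving out each library. Leaving out genes overlapped for 30% or more was added after the data were seen.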

Additional observations from a re-analysis of the deposited data

How the results depend on the processing

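No paired analysis was possible because the libraries form 1 group and no hypothesis was tested. The share of abundance in the 25 top genes was 8.63% without mitochondrially encoded genes, against 10.6%. With the longest transcript as length it was 10.5%, and 17 of the 25 genes remained. RPS2 (8561 TPM) then led all genes ahead of MT-CO2 (7297 TPM), and RPL8 (6413 TPM) stood above MT-CO1 (6161 TPM). The highest member was the same in 28 of 30 lists, but ARRB2 then led the G proteins and MCM7 the proliferation genes. The biological coefficient of variation was 7.16% over genes with at least 100 counts in every library, and 7.18% to 8.61% with 1 library left out, the lowest without replicate 2. At 0.5 CPM, 1 adrenal and 2 muscle markers were expressed, and without replicate 3, 1 adrenal marker was. Depth limits the floor: 3 counts in the shallowest library are 0.173 CPM, so a gene at a lower level can be missed there.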
